A study of Mus musculus with 72 samples.

Results

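The 10 apolipoprotein genes described here are Apoa1, Apoa2, Apoa4, Apoa5, Apob, Apoc1, Apoc2, Apoc3, Apoe and Apom. They were taken by their gene symbols from the 55573 genes of the liver count table, before any filter, and all 10 passed the filter on low counts in every comparison below. Livers came from 72 adult male C57BL/6 mice, with 3 mice in each of 4 groups at each of 6 zeitgeber times (ZT, hours from lights on), ZT2, ZT6, ZT10, ZT14, ZT18 and ZT22. Every mouse carried Bmal1 fl/fl, loxP-flanked copies of a core clock activator gene. WT mice had this allele alone, and LKO mice also carried Albumin-Cre, a recombinase driven from the albumin promoter, which acts in hepatocytes. Whether Bmal1 was kept in the liver's other cells was not measured here. Either genotype was housed with its gut microbes under specific pathogen-free (SPF) conditions or germ free (GF), which gave 4 groups of 18 libraries each, named SPF WT and SPF LKO, and GF WT and GF LKO. Differences were called at a Benjamini-Hochberg adjusted p under 0.05 over all genes tested. The comparisons address whether the liver clock, the microbes and the time of day bear on these transcripts.

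Apolipoproteins are the protein part of the particles that carry fat and cholesterol in blood. Apob is the structural protein of very low density lipoprotein (VLDL) and its products, while Apoa1 and Apoa2 are the main proteins of high density lipoprotein (HDL). Apoc2 activates lipoprotein lipase, Apoc3 opposes triglyceride clearance, Apoa5 favours it, Apoc1 inhibits several lipoprotein enzymes and receptors, and Apoe is a ligand for the receptors that take up remnants. Apoa4 is made in intestine and, in rodents, also in liver, and Apom carries sphingosine 1-phosphate on HDL. The liver clock, with Bmal1 at its core, is known to time many steps of lipid metabolism.

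The 72 libraries held 17369927 to 22076113 counts, and the 10 genes took 4.19 to 5.73% of them. Levels are given as CPM, counts scaled to library size with the TMM factors of edgeR. In 4 libraries clock genes went against the label. Npas2, which was at 25.2 and 24.0 CPM in the other libraries of SPF LKO ZT14, was at 0.221 in replicate 2, and at SPF LKO ZT18 it was at 36.4 and 27.6 CPM but at 1.83 in replicate 1. Nr1d1 was at 8.55 and 3.07 CPM in 2 SPF WT libraries at ZT14 and at 84.8 in replicate 3, whereas at GF WT ZT6 it was at 51.1 and 49.1 CPM in 2 libraries and at 9.39 in replicate 3. All 4 libraries were kept, and results that rest on them are also given without them. The deleted part of Bmal1, listed as Arntl, is not separated from the rest by counts per gene. Pooled over all ZT, the Arntl level did not differ between genotypes past the threshold (log2 fold change -0.33 ± 0.37 (SE), adjusted p = 0.568 in SPF mice, and -0.84 ± 0.37, adjusted p = 0.0813 in GF mice, edgeR). At single ZT it differed in both directions, with more in LKO livers at ZT10 and less at ZT22. The log2 fold changes were 2.83 ± 0.30 and -1.35 ± 0.15 in SPF mice (edgeR adjusted p = 1.98e-05 and 0.000115). In GF mice they were 3.80 ± 0.33 and -1.67 ± 0.15 (edgeR adjusted p = 2.48e-06 and 1.95e-05). Npas2 rose in LKO mice, by 3.25 ± 0.52 on the log2 scale in SPF and by 2.83 ± 0.47 in GF livers (adjusted p = 1.09e-05 and 7.99e-06).

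Hepatocyte markers were abundant in all 4 groups (6 of 7 listed genes with a median of at least 1 CPM, the other, Tf, not analysed here), but their summed level was not even. Its median was 96950 CPM in SPF WT, 48430 in SPF LKO, 120100 in GF WT and 47030 in GF LKO libraries, and most of it was Alb, at medians of 83740, 36380, 103900 and 32180 CPM. Ttr, another hepatocyte gene, had medians of 5563, 5385, 6856 and 5886 CPM. Medians were higher in LKO than in WT libraries for Asgr1 (510.5, 586.9, 617.8 and 708.4 CPM) and Cps1 (4093, 4764, 5822 and 5972). The same held for Serpina1c (905.0, 987.9, 1158 and 1363 CPM), whereas Hnf4a was lower in LKO libraries (734.5, 649.1, 775.0 and 649.5). Of 6 enterocyte markers Fabp2 was the 1 with a median of at least 1 CPM in any group, and the defining genes Sis and Alpi were at 0 in every SPF WT, SPF LKO and GF LKO library and at no more than 0.453 and 0.184 CPM in GF WT libraries. The part of such shifts in the results below was not tested, and in whole liver RNA fewer cells of a type and less RNA per cell cannot be told apart.

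Several of the genes are neighbours. On GRCm38 Apoa1 (9:46228580-46230466, plus strand), Apoc3 (9:46232933-46235636, minus), Apoa4 (9:46240696-46243459, plus) and Apoa5 (9:46268633-46271919, plus) lie together on chromosome 9, and Apoc2 (7:19671579-19677941), Apoc1 (7:19689481-19692660) and Apoe (7:19696109-19699188) lie together on the minus strand of chromosome 7. Apoa2 (1:171225054-171226379, plus), Apob (12:7977648-8016835, plus) and Apom (17:35128997-35132050, minus) stand apart from these. All 10 are protein coding.

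RefSeq promoter windows of GRCm38.p6, from 250 bases before to 50 after a start, held 8 of the 10 genes. The stretches below precede the first annotated base of the 3 genes of the chromosome 9 group on the plus strand and of Apoa2, and are shown because the results below turn on these genes. The Apom window lies within an annotated exon and is not printed. Capitals mark an E-box, the letters CACGTG, to which clock activators are known to bind.
Apoa1, chr9:46228380-46228579, plus: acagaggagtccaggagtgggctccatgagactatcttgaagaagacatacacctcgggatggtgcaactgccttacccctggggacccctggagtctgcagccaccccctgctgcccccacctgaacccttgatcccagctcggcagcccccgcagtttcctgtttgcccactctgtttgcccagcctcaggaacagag
Apoa4, chr9:46240594-46240695, plus: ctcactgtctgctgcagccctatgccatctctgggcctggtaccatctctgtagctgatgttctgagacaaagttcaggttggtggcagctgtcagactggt
Apoa5, chr9:46268383-46268632, plus: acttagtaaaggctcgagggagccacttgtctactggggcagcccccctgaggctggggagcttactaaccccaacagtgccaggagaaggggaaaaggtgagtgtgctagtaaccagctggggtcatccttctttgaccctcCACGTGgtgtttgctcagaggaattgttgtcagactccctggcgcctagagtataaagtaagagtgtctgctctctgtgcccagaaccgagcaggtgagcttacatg
Apoa2, chr1:171224804-171225053, plus: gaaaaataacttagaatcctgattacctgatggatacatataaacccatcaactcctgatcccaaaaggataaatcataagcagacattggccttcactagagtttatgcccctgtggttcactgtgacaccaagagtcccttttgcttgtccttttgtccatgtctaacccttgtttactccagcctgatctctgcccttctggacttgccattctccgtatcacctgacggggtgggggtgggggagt

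Among the 8 genes with a window, Apoa5 alone held an E-box, which began 107 bases before its first annotated exon. These letters stood in 2 of the 12 windows of the 8 genes, both of Apoa5, and in 7.15% of all 32851 windows. The nuclear receptor element AGGTCA, searched on both strands, was found in 2 of the 12 windows, against 16.3% of all windows. They were an Apoa2 and an Apoc2 window. The Apoa2 match is not in the stretch printed above, but in another window whose stretch ends 3490 bases before the first annotated exon. The D-box TTATGTAA, the REV-ERB element (AANT followed by AGGTCA), and AGGTCA repeated with 1 or with 4 bases between, all but the D-box containing AGGTCA, were not found in windows of these genes, against 0.938%, 0.219%, 0.0396% and 0.0152% of all windows. A match is only a match of letters, and binding was not measured.

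The way reads were counted bears on 3 genes. Reads that overlapped more than 1 gene were not counted, and 79.46% of Apoc2's annotated exon bases are shared with Gm44805, a gene on the same strand, and Apoc2 had 6 to 61 counts per library. Per kilobase of unshared exon it stood at 9.21 CPM in SPF WT livers, the lowest of the 10. That division does not restore reads lost at shared bases, so Apoc2's true rank is not known. For Apoa4 69.75% of exon bases are shared with Gm47528 and Gm10680 on the opposite strand, and it had 90 to 871 counts, with the strand not used in counting. Apoa5 shares 20.78% with Gm47544 and had at least 9642 counts per library, and the other 7 genes share none. Values of Apoc2 and Apoa4 are levels of what remained countable.

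Per kilobase of counted length, Apoa2 led in SPF WT livers at 13330 ± 2403 CPM per kb (SD, n = 18). It was followed by Apoa1 at 6567 ± 916.6, Apoc1 at 5850 ± 1064 and Apoe at 5735 ± 749.5, 3 genes whose means lay within 1 SD of the next. Apoc3 stood at 1370 ± 184.8, Apob at 712.3 ± 47.6, Apoa5 at 334.3 ± 50.9 and Apom at 184.2 ± 17.5 CPM per kb. The 2 genes with most shared exon bases came last, Apoa4 at 14.7 ± 4.75 and Apoc2 at 1.89 ± 0.788.

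**Figure D1:**
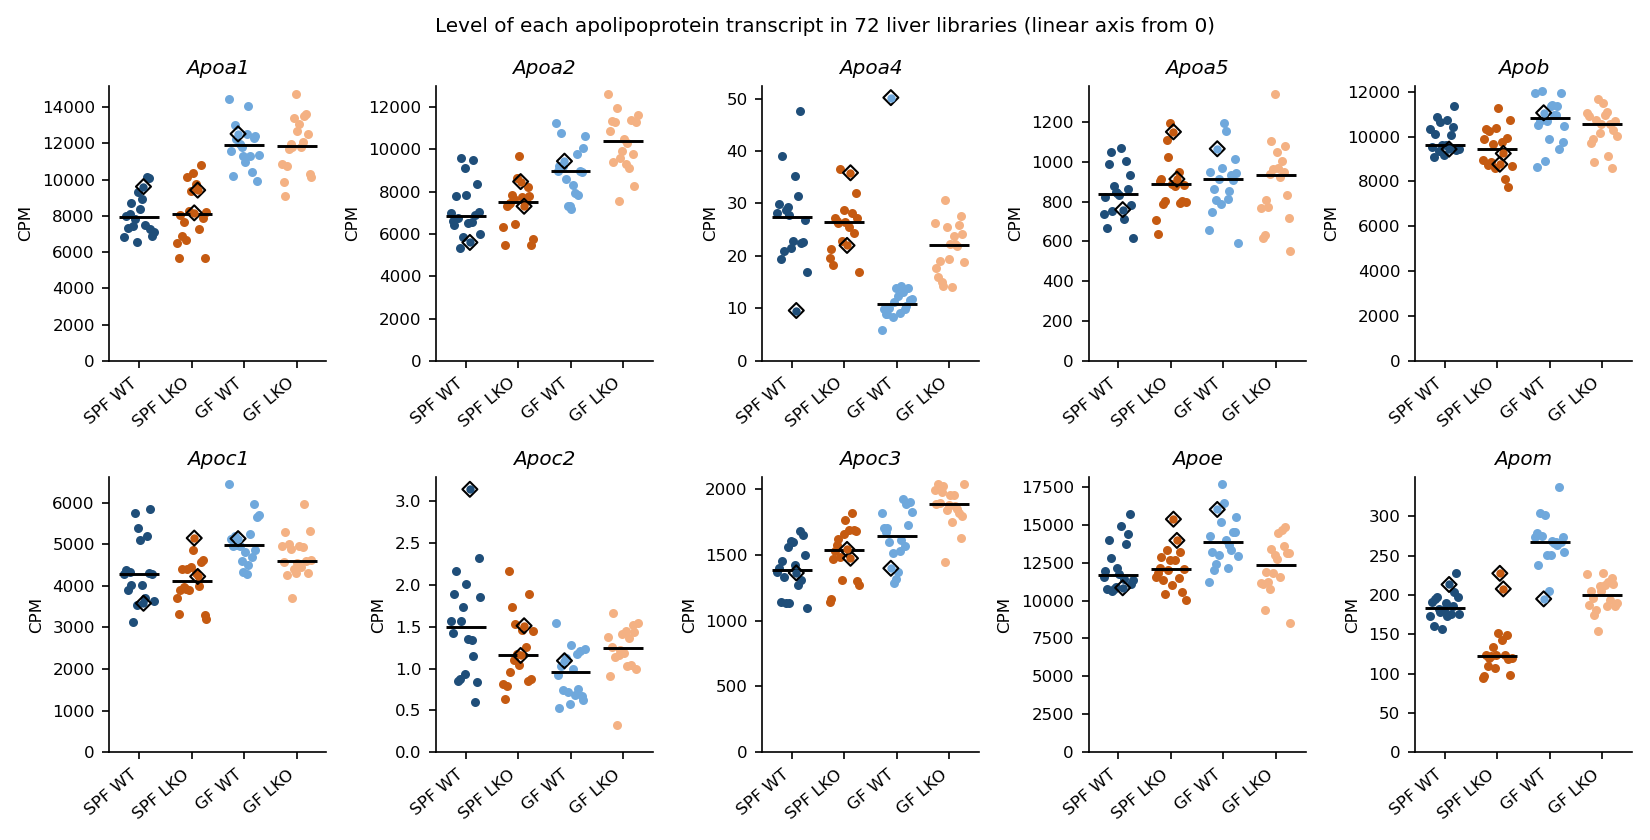
CPM of each of the 10 transcripts (vertical axes, linear, from 0) in the 18 libraries of each group (horizontal axes; points are spread sideways only for visibility, bars are medians). Diamonds mark the 4 libraries whose clock genes went against their labels. Apoa1 and Apom libraries lie higher in GF than in SPF groups, Apom is lower in LKO than in WT libraries, and Apoa4 is lowest in GF WT libraries apart from 1 library at 50.2 CPM.

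Transcripts of the HDL proteins Apoa1, Apoa2 and Apom were higher in GF than in SPF livers of both genotypes, and Apoa4 was lower. Apoa1 ranged from 6546 to 10170 CPM (median 7918) in SPF WT and from 9904 to 14480 (median 11900) in GF WT libraries. Of 18 GF WT libraries 17 lay above every SPF WT library, and the remaining one overlapped the SPF range. In LKO mice Apoa1 ranged from 5669 to 10790 CPM (median 8117) under SPF and from 9092 to 14720 (median 11870) under GF conditions, and 13 of 18 GF libraries lay above all SPF libraries. At each of the 6 ZT, and in both genotypes, the 3 GF livers had more Apoa1 than the 3 SPF livers with no overlap. The log2 fold change was 0.53 ± 0.06 (SE) in WT (edgeR adjusted p = 6.96e-08) and 0.54 ± 0.08 in LKO mice (adjusted p = 2.78e-06).

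Apom ranged from 156.6 to 227.9 CPM (median 183.7) in SPF WT and from 195.1 to 337.3 (median 267.2) in GF WT libraries. Its range was 94.2 to 227.6 CPM (median 122.9) in SPF LKO and 154.3 to 227.7 (median 200.6) in GF LKO libraries. All 18 GF libraries of either genotype lay above the median of their SPF counterparts, though the ranges overlapped. The increase was 0.48 ± 0.05 on the log2 scale in WT (adjusted p = 4.24e-08) and 0.59 ± 0.09 in LKO mice (adjusted p = 2.46e-06, edgeR). Without the doubtful libraries it was 0.51 ± 0.05 and 0.72 ± 0.06.

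Apoa2 had 5338 to 9612 CPM (median 6833) in SPF WT and 7172 to 11260 (median 8976) in GF WT libraries, and 5461 to 9702 (median 7507) in SPF LKO and 7568 to 12630 (median 10390) in GF LKO libraries. Within either genotype the GF and SPF ranges overlapped, with all 18 GF libraries above the SPF median. The rise was 0.30 ± 0.07 on the log2 scale in WT and 0.48 ± 0.07 in LKO livers (edgeR adjusted p = 0.00205 and 2.15e-06).

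Apoa4 moved the other way. SPF WT libraries held 9.59 to 47.6 CPM (median 27.3), and GF WT libraries 5.82 to 50.2 (median 10.9). Both the lowest SPF WT value (ZT14 replicate 3) and the highest GF WT value (ZT6 replicate 3) came from libraries whose clock genes went against their labels. Without them SPF WT libraries held 16.8 to 47.6 CPM and GF WT libraries 5.82 to 14.2, so that the 17 remaining libraries of each group did not overlap. The decrease in GF WT livers was -1.07 ± 0.20 on the log2 scale with all libraries (edgeR adjusted p = 9.18e-05) and -1.39 ± 0.12 without the 2 (adjusted p = 6.89e-11). In LKO mice Apoa4 ranged from 16.9 to 36.6 CPM (median 26.4) under SPF and from 14.2 to 30.7 (median 22.0) under GF conditions, with 16 of 18 GF libraries below the SPF median and wide overlap. The decrease there was -0.28 ± 0.10 (adjusted p = 0.0274), and the call was lost without any 1 of the 3 replicate numbers (adjusted p = 0.0635 to 0.12).

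Counted over the 10 genes, 8 differed between GF and SPF WT livers, 6 of them higher and 2 lower in GF, where 31.8% of all 12776 genes tested were called, 14.2% higher and 17.7% lower. In LKO livers 7 were called, 6 higher and 1 lower, against 36.4% of 13010 genes, 18.1% higher and 18.4% lower. The median log2 fold change of the 10 was 0.18 in WT and 0.16 in LKO mice, beside -0.02 and -0.02 over all genes tested. The comparisons by microbial status share libraries with the comparisons by genotype, and their values are therefore not independent of one another.

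The remaining genes showed smaller differences. Apoc3, the inhibitor of triglyceride clearance, rose in GF livers by 0.20 ± 0.06 on the log2 scale in WT and by 0.30 ± 0.06 in LKO mice (edgeR adjusted p = 0.0111 and 7.5e-05). Apoc1 rose by 0.20 ± 0.07 in WT (adjusted p = 0.0289, and 0.05003 without the 2 doubtful libraries) and by 0.19 ± 0.06 in LKO mice (adjusted p = 0.0101). Apoe rose by 0.16 ± 0.06 in WT mice (adjusted p = 0.0337), a call lost without GF WT ZT6 replicate 3 (adjusted p = 0.0501), and differed by 0.01 ± 0.06 in LKO mice (adjusted p = 0.944). Apob, the VLDL structural protein, rose by 0.13 ± 0.05 in LKO mice (adjusted p = 0.0361, and 0.0563 without the 2 doubtful SPF LKO libraries) and differed by 0.08 ± 0.05 in WT mice (adjusted p = 0.22). Apoa5 was the 1 gene called in neither genotype, at 0.07 ± 0.08 and -0.02 ± 0.09. Leaving out 1 replicate number ended the WT calls of Apoc3, Apoc1 and Apoe (2 or 3, adjusted p from 0.0715 to 0.282) and the LKO calls of Apoc1 (2 or 3) and Apob (each number, adjusted p at most 0.202). With total counts only Apoa2, Apoc3, Apoc1 and Apoe were not called in WT mice (adjusted p at least 0.0694), nor Apoc1 and Apob in LKO mice. Without the filter Apoe in WT and Apob in LKO mice were not called (adjusted p = 0.059 and 0.132).

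Apoc2, on its few counts, ranged from 0.597 to 3.15 CPM (median 1.497) in SPF WT and from 0.533 to 1.55 (median 0.958) in GF WT libraries, which overlapped widely. It fell by 0.74 ± 0.18 on the log2 scale in GF WT livers (edgeR adjusted p = 0.00171), while the LKO difference was -0.03 ± 0.15 (adjusted p = 0.908). The highest Apoc2 value, 3.15 CPM, came from the doubtful SPF WT ZT14 replicate 3, and the WT call was lost without replicate number 2 (adjusted p = 0.0527).

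**Figure D2:**
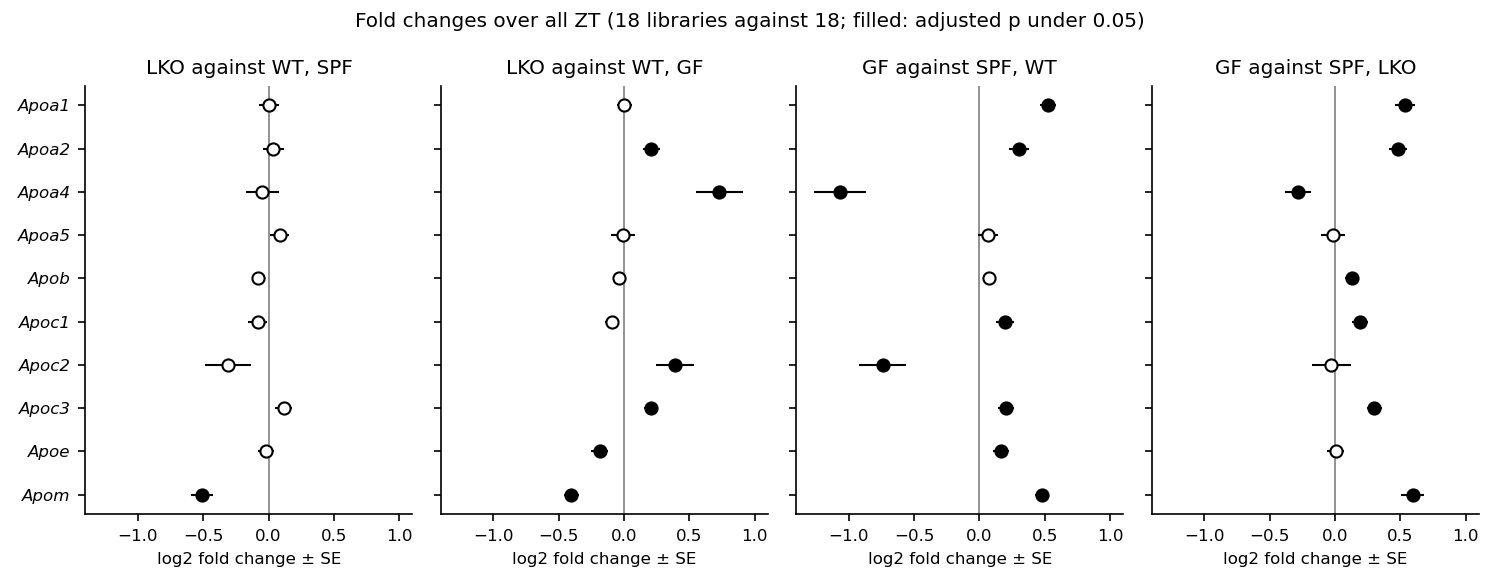
Log2 fold change over all ZT with its standard error (horizontal axes) for the 10 genes in 4 comparisons of 18 libraries with 18. Filled points passed an adjusted p of 0.05 in edgeR's test. Apom lies left of 0 in both genotype panels, Apoa1, Apoa2 and Apom lie right of 0 in both microbial panels, and Apoa4 lies at -1.07 in GF against SPF WT livers.

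Apom was lower in livers without hepatocyte Bmal1. In SPF mice 16 of 18 LKO libraries lay below every WT library, and the other 2, at 227.6 and 207.8 CPM, were the doubtful ZT14 replicate 2 and ZT18 replicate 1. Without the doubtful libraries SPF LKO livers held 94.2 to 151.3 CPM and SPF WT livers 156.6 to 227.9, with no overlap. The decrease was -0.51 ± 0.09 on the log2 scale (edgeR adjusted p = 2.21e-05) and -0.62 ± 0.06 without these libraries (adjusted p = 1.23e-10). In GF mice the 18 LKO libraries all lay below the WT median, 8 of them below every WT library, and the decrease was -0.40 ± 0.06 (adjusted p = 2.46e-07). Mean Apom was lower in LKO than in WT livers at all 6 ZT under either condition. Median Alb was also lower in LKO than in WT libraries, in SPF and in GF mice, as given above. The part of Alb in this result was not tested.

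Apom was the 1 of the 10 genes called in SPF mice, where 23.1% of 13159 genes were called, 11.5% lower. In GF mice 6 genes were called, 4 higher and 2 lower, against 30.8% of 12662 genes, 15.6% higher and 15.2% lower. The median log2 fold change of the 10 was -0.03 in SPF and -0.002 in GF mice.

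The largest genotype difference in GF livers was that of Apoa4. GF WT libraries, at 5.82 to 50.2 CPM (median 10.9), were exceeded by GF LKO libraries at 14.2 to 30.7 (median 22.0). All 18 LKO libraries lay above the WT median, and without GF WT ZT6 replicate 3 the WT maximum was 14.22 CPM beside an LKO minimum of 14.15. Apoa4 rose by 0.73 ± 0.18 on the log2 scale in GF LKO livers (edgeR adjusted p = 0.00171) and by 0.99 ± 0.11 without that library (adjusted p = 1.56e-09). With that library kept, the call was lost without replicate number 1 or 2 (adjusted p = 0.146 and 0.0646). In SPF mice the same contrast gave -0.05 ± 0.13 (adjusted p = 0.828).

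The other calls in GF mice were smaller. Apoa2 was higher by 0.21 ± 0.06 on the log2 scale (edgeR adjusted p = 0.0111), Apoc3 by 0.20 ± 0.05 (adjusted p = 0.00304) and Apoc2 by 0.39 ± 0.15 (adjusted p = 0.0379). Apoe, the remnant ligand, was lower by -0.19 ± 0.06 (adjusted p = 0.0235). Leaving out 1 replicate number ended these calls for Apoc2 (each number, adjusted p = 0.0692 to 0.247), Apoa2 (2 or 3, 0.207 and 0.173), Apoe (2 or 3, 0.119 and 0.198) and Apoc3 (3, 0.0948). Apoc2 and Apoe were also not called without the filter (adjusted p = 0.0982 and 0.0595), nor Apoe with total counts only (0.892). Apoa1, Apoa5, Apob and Apoc1 were called in neither SPF nor GF mice, with fold changes from -0.10 to 0.09 on the log2 scale.

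Whether the genotype effect differed between GF and SPF mice was tested in 1 model of all 72 libraries. None of the 10 genes passed (edgeR, 0.438% of 13484 genes called), with 3 at an unadjusted p under 0.05 (Apoa4, Apoc2 and Apoe) and 0 called by DESeq2. The largest difference was that of Apoa4, 0.77 ± 0.22 (adjusted p = 0.146). This value was lowered by 1 library. Without GF WT ZT6 replicate 3, which held 50.2 CPM of Apoa4 beside 8.97 and 10.0 in the other 2 livers, it was 1.05 ± 0.17 (adjusted p = 0.000114), and without all 4 doubtful libraries 1.11 ± 0.16 (adjusted p = 5.39e-06). For Apom the difference was 0.10 ± 0.10 (adjusted p = 0.976), and for Apoa1 -0.01 ± 0.10 (adjusted p = 1).

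**Figure D3:**
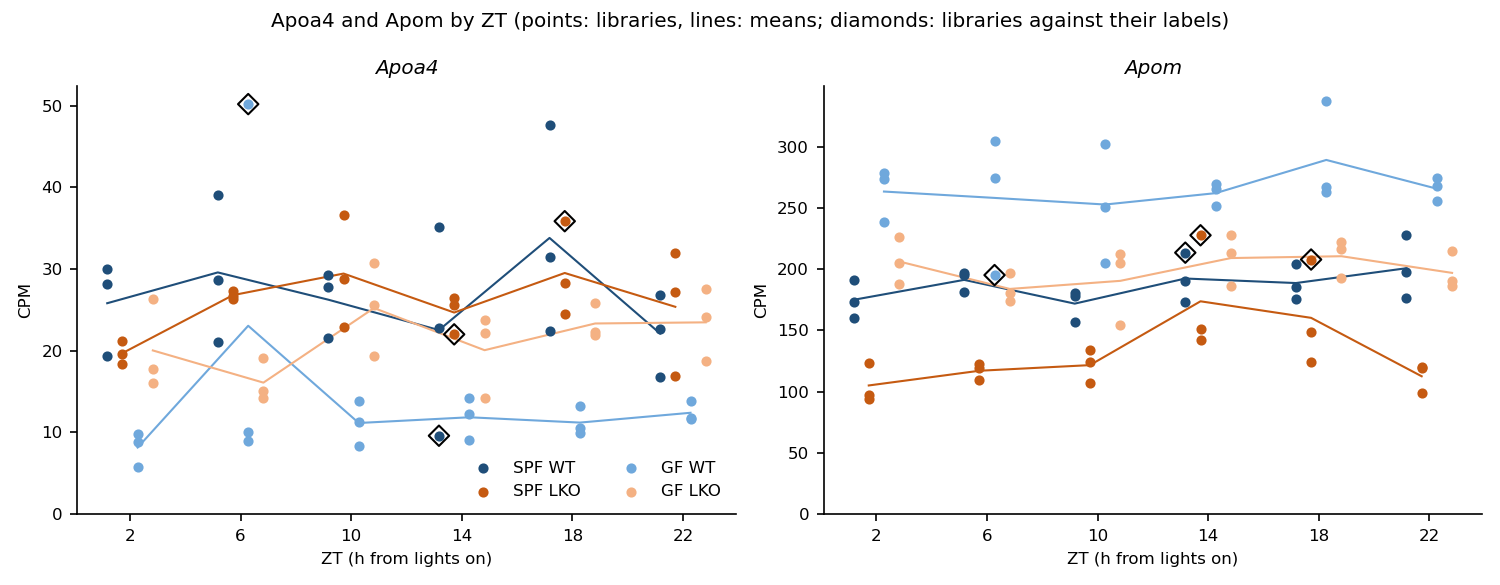
CPM of Apoa4 and Apom (vertical axes, linear, from 0) in each library against ZT (horizontal axes, hours from lights on, groups set slightly apart), with lines through the means of 3 mice. Diamonds mark the 4 libraries against their labels. GF WT livers hold 5.82 to 14.2 CPM of Apoa4 apart from the diamond at ZT6, and the 2 SPF LKO diamonds lie above the other SPF LKO livers in Apom.

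At single ZT, with 3 livers against 3 and all 4 groups in 1 fit, fewer genes passed. In GF mice LKO livers held more Apoa4 than WT livers at ZT2 (26.3, 17.7 and 16.04 against 5.82, 9.78 and 8.83 CPM), ZT10 (30.7, 25.6 and 19.4 against 8.33, 11.2 and 13.9), ZT18 (22.3, 21.9 and 25.9 against 13.2, 9.91 and 10.49) and ZT22 (27.5, 24.1 and 18.8 against 13.8, 11.6 and 11.8). In these 4 sets the 2 genotypes did not overlap. The log2 fold changes were 1.30 ± 0.22, 1.19 ± 0.22, 1.08 ± 0.24 and 0.93 ± 0.23 (edgeR adjusted p = 0.0036, 0.00184, 0.0168 and 0.0331). Of the 10, edgeR called Apoa4 alone at each of these times and DESeq2 also called Apoa5 at ZT10 and Apom at ZT22, where 4.21%, 13.1%, 8.43% and 4.44% of all genes were called by edgeR. Leaving out single livers raised the adjusted p above the threshold at ZT18 (GF WT replicates 2 and 3, GF LKO replicate 3, at most 0.074) and at ZT22 (all but GF LKO replicate 3, at most 0.137), but not at ZT2 or ZT10.

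In WT mice Apoa4 was lower in GF than in SPF livers at ZT2, ZT10 and ZT18. The SPF WT values were 28.1, 29.95 and 19.4 CPM at ZT2, 29.3, 27.8 and 21.6 at ZT10, and 31.4, 47.6 and 22.4 at ZT18, all above the GF WT values given before. The differences were -1.69 ± 0.22, -1.26 ± 0.22 and -1.60 ± 0.24 on the log2 scale (edgeR adjusted p = 0.00105, 0.0114 and 0.0129). At ZT2 Apom rose as well, by 0.57 ± 0.12, with Apoa1 by 0.69 ± 0.16 and Apoa2 by 0.53 ± 0.14, making 4 genes of 10 against 10.1% of all genes. At ZT6 the 1 gene that edgeR called was Apoa1 (0.64 ± 0.12, adjusted p = 0.0358, 2.62% of all genes), and at ZT10 and ZT18 Apoa4 (2.89% and 0.983%). At ZT2, ZT6, ZT10 and ZT18 DESeq2 called 6, 4, 4 and 2 of the 10. In edgeR 6, 5, 5 and 3 had an unadjusted p under 0.05 at these times. The edgeR calls of Apoa1, Apoa2 and Apom at ZT2 and ZT6 were each lost without at least 1 single liver (adjusted p at most 0.114), whereas the ZT2 call of Apoa4 was not. The ZT18 call for Apoa4 was lost without SPF WT replicate 1 or any GF WT liver (adjusted p = 0.0553 to 0.0735).

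In LKO mice 4 of the 10 genes were higher in GF livers at ZT2, where 8.92% of all genes were called, 5.71% higher. Apom rose by 0.97 ± 0.12 on the log2 scale, from 97.2, 123.5 and 94.2 CPM to 226.5, 187.5 and 204.7 (edgeR adjusted p = 0.00233). Apoa2 rose by 0.86 ± 0.14 (adjusted p = 0.00496), Apoc3 by 0.64 ± 0.12 (adjusted p = 0.0081) and Apoa1 by 0.55 ± 0.16 (adjusted p = 0.0491). None of the GF values of Apom at this time overlapped the SPF values. At ZT6 edgeR called Apoa1 (0.69 ± 0.12, adjusted p = 0.0362, 0.309% of all genes) and at ZT22 Apom (0.82 ± 0.12, adjusted p = 0.00591, 2.25%). At ZT2, ZT6 and ZT22 DESeq2 called 5, 3 and 3 of the 10, with 5, 4 and 4 at an unadjusted p under 0.05 in edgeR. Both edgeR calls of Apoa1 were lost without single livers (adjusted p at most 0.194), and those of Apom, Apoa2 and Apoc3 were not. In LKO mice edgeR called 0 of the 10 at ZT10, ZT14 and ZT18 (0.982%, 0.0601% and 3.71% of all genes), with 2, 1 and 3 at an unadjusted p under 0.05 and 2, 0 and 1 called by DESeq2. In WT mice it called 0 at ZT14 and ZT22 (0.0751% and 0.516%), with 4 and 6 at an unadjusted p under 0.05 and 1 and 3 called by DESeq2.

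Between SPF LKO and SPF WT livers at single ZT, edgeR called Apom alone of the 10, and DESeq2 also called Apoa5 at ZT10. Apom was lower at ZT2 (97.2, 123.5 and 94.2 against 173.3, 191.2 and 160.2 CPM), ZT6 (109.3, 119.5 and 122.3 against 194.8, 197.1 and 181.7), ZT10 (133.9, 106.8 and 124.0 against 178.2, 156.6 and 180.5) and ZT22 (119.1, 98.6 and 119.7 against 227.9, 176.5 and 197.6). At these 4 times the genotypes did not overlap. The decreases were -0.75 ± 0.12, -0.71 ± 0.14, -0.50 ± 0.15 and -0.85 ± 0.12 on the log2 scale (edgeR adjusted p = 0.00229, 0.00643, 0.0485 and 0.000814), at times when 6.89%, 7.26%, 11.9% and 3.31% of all genes were called. The ZT10 call was lost without any 1 of the 6 livers except SPF WT replicate 2 (adjusted p at most 0.162). At ZT14 and ZT18, which hold 3 of the doubtful libraries, no gene of the 10 was called (edgeR), with 2 and 0 at an unadjusted p under 0.05 and 0 and 0 by DESeq2, and 0% and 0.015% of all genes were called. In GF mice edgeR called Apom at ZT6 alone, and DESeq2 at ZT6 and ZT22 (edgeR at ZT6 -0.49 ± 0.14, adjusted p = 0.0344, 11.7% of all genes), a call lost without any 1 of the livers except GF WT replicate 3 (adjusted p at most 0.129). At ZT14 none was called in GF mice (edgeR, 6.1% of all genes), with 2 at an unadjusted p under 0.05 and 1 called by DESeq2.

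**Figure D4:**
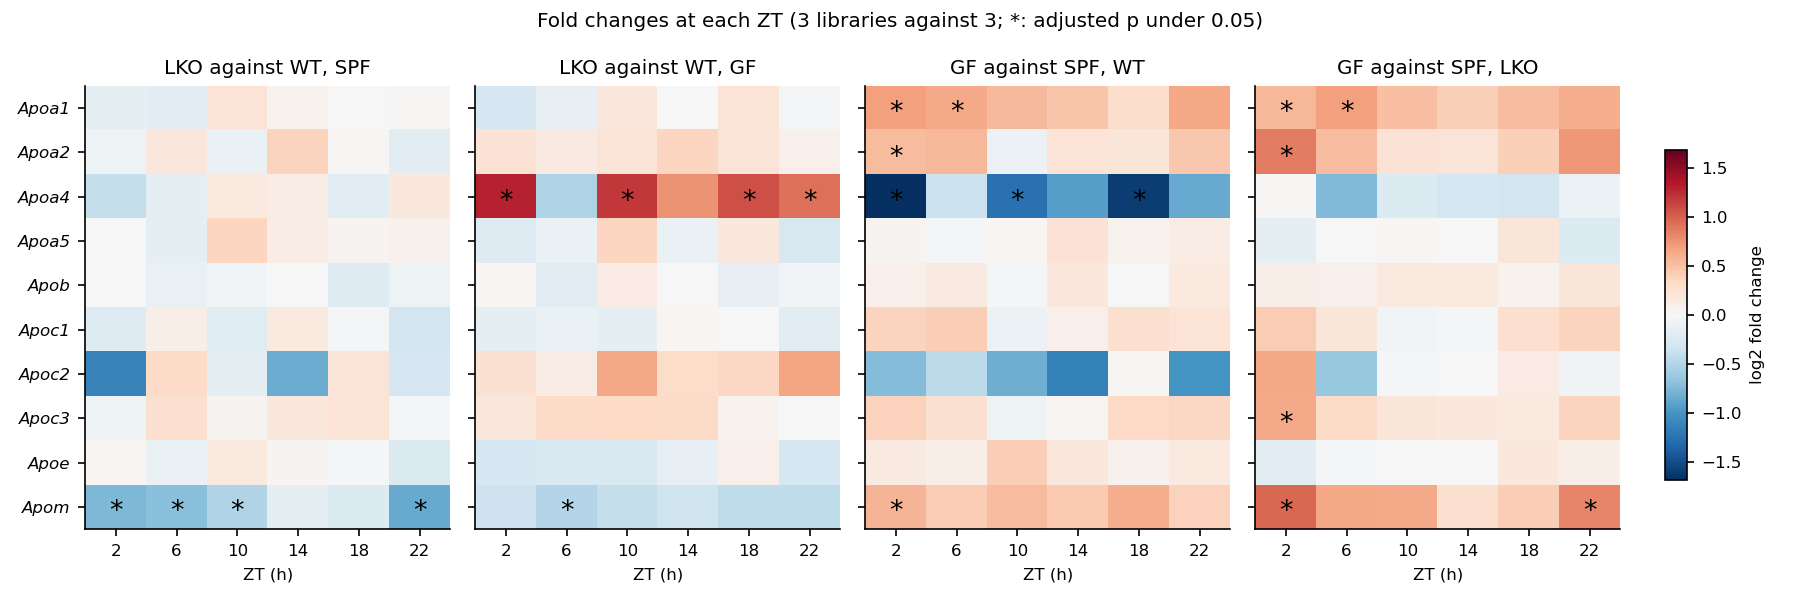
Log2 fold change (colour) of each gene (rows) at each ZT (columns, hours) in 4 comparisons of 3 libraries with 3, with stars at an adjusted p under 0.05. Stars lie mostly in the rows of Apoa4 and Apom, and the Apoa4 row at ZT6 holds the GF WT library at 50.2 CPM.

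A 24 h rhythm was tested within each group by a cosine and a sine term over the 18 libraries, and its amplitude is given as peak against trough. In SPF WT livers none of the 10 genes passed (edgeR), with 0 at an unadjusted p under 0.05 and 0 by limma, while 15.5% of all genes passed. Apoa1 had the lowest p of the 10 there, with a peak 1.23-fold above the trough (adjusted p = 0.203). On simulated counts with the same spread for every gene, this test found 6 of 100 rhythms of log2 amplitude 0.2. It found 88 of 100 at 0.5, so a rhythm that did not pass is not shown to be absent. The simulation changed few of its 13204 tested genes and did not use the spread of each of the 10. Its shares are therefore not those of the 10 genes. In SPF LKO livers Apoc1 and Apoa2 passed at log2 amplitudes of 0.18 and 0.21. In SPF LKO livers 5 genes passed, against 22.2% of all genes. They were Apom (1.63-fold, peak at ZT 15.04, adjusted p = 0.0106), Apoa1 (1.48-fold, ZT 14.1, 0.0189), Apoa5 (1.38-fold, ZT 12.3, 0.0191), Apoa2 (1.33-fold, ZT 12.6, 0.0479) and Apoc1 (1.28-fold, ZT 13.1, 0.0488). Apom's peak fell where its 2 doubtful libraries lie, and without them its log2 amplitude was 0.21 in place of 0.35 (adjusted p = 0.0209). Without SPF LKO ZT14 replicate 2 the calls of Apoa2 and Apoc1 were lost (adjusted p = 0.0683 and 0.1), and without ZT18 replicate 1 that of Apoc1 (adjusted p = 0.0528). Each of the 5 calls was lost without at least 2 of the 3 replicate numbers (adjusted p from 0.0644 to 0.278). With ZT as a factor in place of the 24 h curve, 0 of the 10 genes passed in SPF LKO and 0 in GF WT livers.

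In GF WT livers Apoa2 and Apoc3 passed, against 27.7% of all genes, and their peaks lay at the end of the night or the start of the day. Apoc3 was 1.32-fold higher at its peak at ZT 22.0 than at its trough (adjusted p = 0.0072), with means of 1818 ± 86.2 CPM at ZT22 and 1372 ± 125.0 at ZT10 (SD, n = 3). Apoa2 was 1.32-fold higher at its peak at ZT 0.9 (adjusted p = 0.0213). Without 1 replicate number the call of Apoa2 was lost each time (adjusted p = 0.0996 to 0.127), and that of Apoc3 without number 2 or 3 (0.0919 and 0.0506). In GF LKO livers Apoa5, Apoa1 and Apoe passed, against 36% of all genes. Apoa5, which favours triglyceride clearance, held 770.6, 616.1 and 633.4 CPM at ZT2 and 1103, 965.4 and 1342 at ZT10, and the livers of the 2 times did not overlap. Its peak at ZT 12.7 was 1.67-fold above the trough (adjusted p = 0.000693), and this call held in all 8 alternatives run, 3 of them without a replicate number. Apoa1 peaked at ZT 13.5 (1.31-fold, adjusted p = 0.0117, lost without replicate number 2 or 3 at 0.167 and 0.119) and Apoe at ZT 15.3 (1.31-fold, adjusted p = 0.0306, lost without any 1 replicate number). All amplitudes were tested with edgeR.

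A rhythm that passes in 1 group and not in another is not thereby different, so the difference was tested as well. Between SPF LKO and SPF WT, GF LKO and GF WT, and GF WT and SPF WT livers no gene of the 10 passed (edgeR), with 1, 2 and 2 at an unadjusted p under 0.05 and 0 called by limma in each. Over all genes 1.12%, 6.38% and 0.047% passed. On simulated counts with a rhythm in 1 of 2 groups, this test found 2 of 100 at log2 amplitude 0.2. It found 49 of 100 at 0.5, so changes of this size could be missed. The limits of the simulation given above hold here too. Apom had an adjusted p of 0.118 for SPF LKO against SPF WT. Between GF LKO and SPF LKO livers the rhythm of Apoa2 differed (adjusted p = 0.0371, 5.34% of all genes), with fitted peaks at ZT 12.6 in SPF LKO and ZT 1.1 in GF LKO livers. That call was lost without SPF LKO ZT14 replicate 2 (adjusted p = 0.0566) and without any 1 replicate number (adjusted p = 0.166 to 0.257). GF LKO livers had no rhythm of Apoa2 past the threshold (adjusted p = 0.233).

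**Figure D5:**
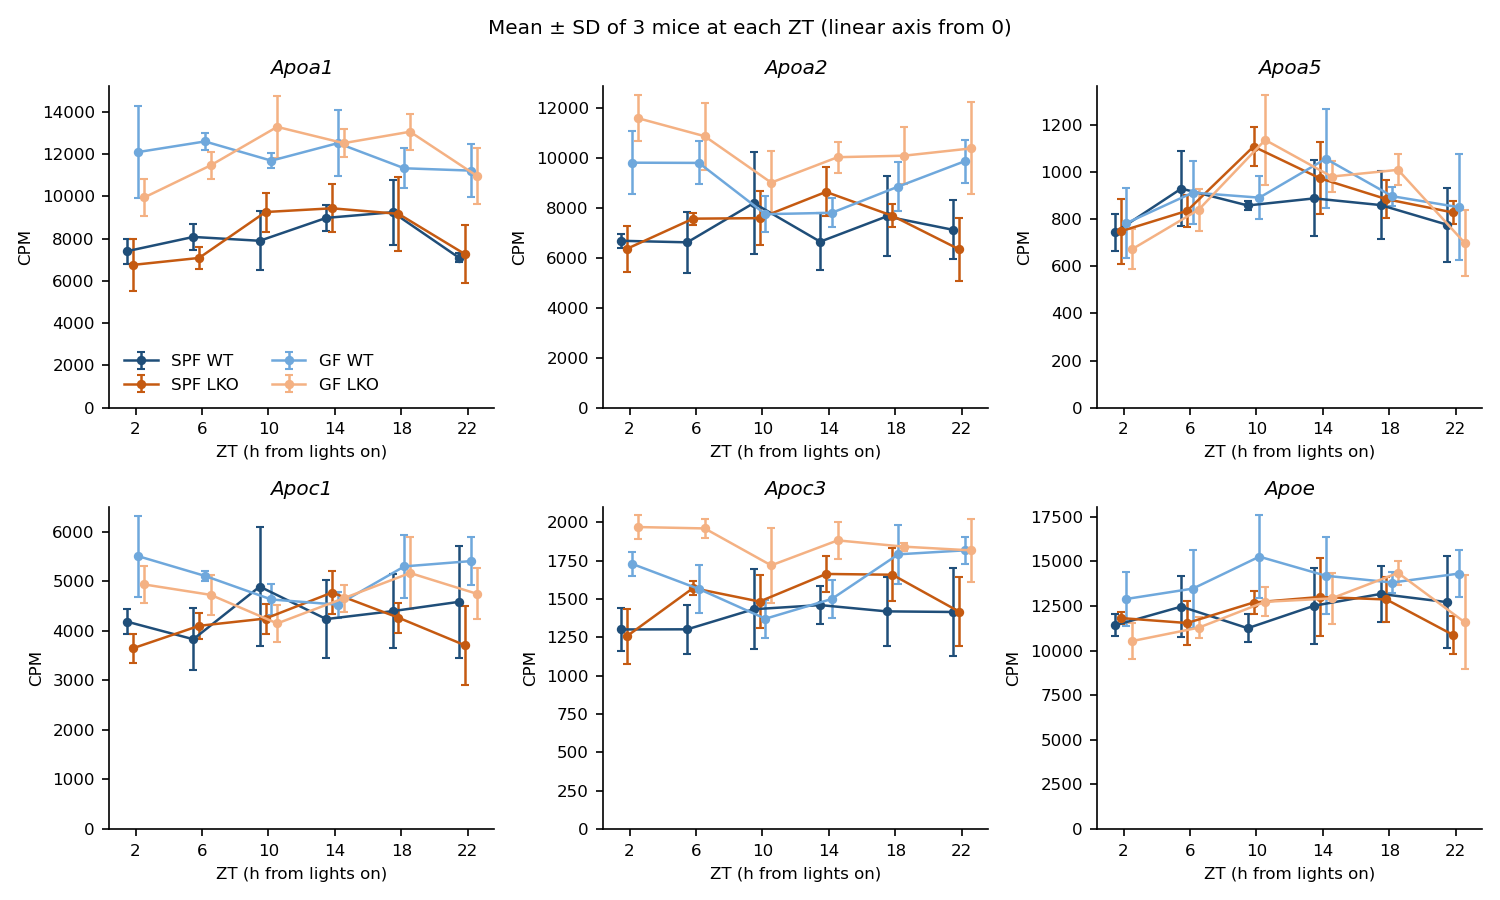
Mean CPM ± SD of 3 mice (vertical axes, linear, from 0) against ZT (horizontal axes, hours from lights on) for the 6 genes besides Apom that passed a rhythm test in at least 1 of the 4 groups. Apoa5 is highest near ZT10 in both LKO groups, Apoa1 lies higher in GF than in SPF livers at every ZT, and Apoc3 dips at ZT10 in GF WT livers to 1372 CPM.

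Genes that work with these proteins were described by 6 lists, with the share of all genes that edgeR called beside each count. Several counts lie near those shares, and nothing is read from them about a list. The first list held 7 genes, other apolipoproteins and a receptor for Apob, and 6 of the 7 were tested. Of these 6 genes, 3 were higher in LKO livers in SPF (11.6% of all genes) and in GF mice (15.6%). By microbial status 4 were higher and 1 lower in GF livers of WT (14.2% and 17.7%) and LKO mice (18.1% and 18.4%). Apof, an HDL and LDL protein that acts on cholesteryl ester transfer, was higher in all 4 comparisons, by 0.41 ± 0.05 and 0.53 ± 0.04 on the log2 scale in LKO livers (SPF and GF mice) and by 0.31 ± 0.04 and 0.44 ± 0.05 in GF livers (WT and LKO, edgeR adjusted p at most 2.05e-06). Apoh, a phospholipid-binding plasma protein, was higher by 0.36 ± 0.06 in SPF LKO and 0.32 ± 0.05 in GF LKO livers (adjusted p = 1.12e-05 and 5.97e-07).

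Of 12 genes of lipoprotein assembly and secretion, 1 was higher and 2 were lower in SPF LKO (23.1% of all genes called), 1 and 4 in GF LKO (30.8%), 4 and 0 in GF WT against SPF WT (31.8%), and 4 and 1 in GF LKO against SPF LKO livers (36.4%). Sar1b, a coat protein for secretory vesicles, fell by 0.26 ± 0.09 on the log2 scale in SPF LKO and by 0.37 ± 0.07 in GF LKO livers (edgeR adjusted p = 0.0361 and 2.18e-05). A1cf, a cofactor of Apob RNA editing, fell by 0.38 ± 0.10 in GF LKO against GF WT and by 0.47 ± 0.09 in GF LKO against SPF LKO livers (adjusted p = 0.00187 and 0.000115). Cideb, which takes part in VLDL lipidation, rose by 0.33 ± 0.04 in GF WT against SPF WT livers (adjusted p = 4e-07).

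Among 9 genes of HDL formation and remodelling, 3 were higher and 2 lower in LKO livers, in SPF (23.1% of all genes called) and in GF mice (30.8%). Lipc, hepatic lipase, rose by 0.65 ± 0.08 on the log2 scale in SPF LKO and by 0.82 ± 0.05 in GF LKO livers (edgeR adjusted p = 7.9e-08 and 1.42e-16). Lipg, endothelial lipase, fell by 1.63 ± 0.27 and 2.37 ± 0.35, and Pltp, phospholipid transfer protein, by 0.60 ± 0.19 and 1.11 ± 0.16 (adjusted p at most 0.0177). By microbial status 3 were higher and 1 lower in WT (31.8%), and 3 higher and 2 lower in LKO livers (36.4%). Lipc rose in GF livers by 0.23 ± 0.05 in WT and by 0.41 ± 0.08 in LKO mice (adjusted p = 0.00115 and 7.42e-05).

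Of 8 genes for uptake receptors and their regulators, 1 was higher and 0 lower in SPF LKO (23.1% of all genes called), 1 and 1 in GF LKO (30.8%), 2 and 1 in GF WT against SPF WT (31.8%), and 1 and 3 in GF LKO against SPF LKO livers (36.4%). Lrpap1, a chaperone of receptors of the LDL receptor family, rose by 0.18 ± 0.04 on the log2 scale in GF WT livers (edgeR adjusted p = 0.000334). Of 6 genes of plasma triglyceride lipolysis, 2 were higher and 1 lower in SPF LKO (23.1%), 1 and 1 in GF LKO (30.8%), 2 and 0 in GF WT (31.8%), and 2 and 1 in GF LKO against SPF LKO livers (36.4%). Lpl, lipoprotein lipase, the enzyme that Apoc2 activates, rose by 4.14 ± 0.31 in SPF LKO and by 4.004 ± 0.16 in GF LKO livers (adjusted p = 1.59e-12 and 3.78e-22). Angptl4, an inhibitor of that enzyme, fell by 0.86 ± 0.25 and 0.75 ± 0.23 (adjusted p = 0.012 and 0.0119).

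Of 20 nuclear receptors and other factors known to act on apolipoprotein genes, 1 was higher and 6 lower in SPF LKO (23.1% of all genes called), 1 and 5 in GF LKO (30.8%), 2 and 0 in GF WT (31.8%), and 4 and 4 in GF LKO against SPF LKO livers (36.4%). Nr1d1, a clock repressor, fell by 2.93 ± 0.53 on the log2 scale in SPF LKO and by 2.80 ± 0.48 in GF LKO livers (edgeR adjusted p = 5.93e-05 and 1.27e-05). Srebf2, a regulator of cholesterol synthesis, rose by 0.39 ± 0.11 in GF WT livers (adjusted p = 0.00549), and Ppara fell by 0.37 ± 0.11 in GF LKO against SPF LKO livers (adjusted p = 0.0106).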

How the data were processed

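RNA from 72 livers was sequenced as stranded mRNA libraries. Single-end reads were aligned by the authors to GRCm38 (STAR 2.6.1b) and counted reads per gene over exons with featureCounts 2.0.0 on Ensembl 97 annotation, without strand and leaving out reads that overlapped several genes or mapped more than once. The deposited values are raw counts, and no column of the table was left unused. Nothing in the labels places several libraries in 1 mouse, and p-values measure the spread between these livers.

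Counts were tested with edgeR 4.0.16 (R 4.3.3) by its quasi-likelihood test, with TMM scaling and the filterByExpr filter (minimum count 10, minimum total 15), and p-values were adjusted over all genes tested (Benjamini-Hochberg, threshold 0.05). Pooled comparisons used the 36 libraries of both groups with no term for ZT, the interaction used 72, and comparisons at 1 ZT used the 12 libraries of that time. Rhythms were fitted with a 24 h cosine and sine term, in place of the rank-based rhythm test of the study, which was not run. Tests are two-sided. Scripts were tested on simulated data. Alternatives were DESeq2 1.42.0 size factors and Wald test, total counts only (chosen after seeing the data), no filter, limma 3.58.1 with voom for rhythms, ZT as a factor, a replicate block, and leaving out replicates or single libraries. Summaries and figures used Python 3.11.15, numpy 2.4.6, pandas 2.3.3, scipy 1.17.1 and matplotlib 3.10.9.

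The 10 genes and all lists were chosen with earlier results of these data known. Named besides them were 4 clock genes as checks of labels, up to 3 called genes with the largest fold change per list and comparison (mean log2 CPM no lower than 1), and the 3 genes most correlated with each of the 10. Symbols were matched by gene ID for 55394 of 55573 genes, and positions came from a GENCODE annotation of GRCm38. Some genes of the lists are not reported here by name.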

Additional observations from a re-analysis of the deposited data

Results flagged for a closer look

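The 24 h rhythm of Apoa2 differed between GF LKO and SPF LKO livers by a test of the difference itself (edgeR adjusted p = 0.0371). The fitted peak was 1.33-fold above the trough at ZT 12.6 in SPF LKO and 1.18-fold at ZT 1.1 in GF LKO livers. The call was lost without SPF LKO ZT14 replicate 2 (adjusted p = 0.0566) and without both doubtful SPF LKO libraries (adjusted p = 0.0556). It was also lost without any 1 replicate number (adjusted p = 0.166 to 0.257) and with ZT as a factor (adjusted p = 0.252).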

How the results depend on the processing

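Of 610 values of the pooled fold changes and the interaction under alternatives, 561 kept their side of the threshold, and 39 lost and 7 gained the call. A change of direction was counted where the main or the alternative value was called, which held for 3. Changes of direction between values that were both not called are among the 561. The 3 came with total counts only, Apob at 0.14 in LKO against WT, GF, and Apoe at -0.0019 and Apob at -0.10 in GF against SPF, WT. That scaling moved the median log2 fold change of all genes to 0.0985, 0.1817, -0.1914 and -0.131 (LKO in SPF, LKO in GF, GF in WT, GF in LKO), and it called 3 genes (2 higher, 1 lower) in LKO against WT, SPF, and 5 (2 higher, 3 lower) in GF against SPF, WT. It called 6 higher and 1 lower in LKO against WT, GF, and 4 higher and 1 lower in GF against SPF, LKO. Of the genes called under it, Apoa1 and Apob (LKO against WT, GF) and Apob (GF against SPF, WT) lay on the other side of that median, at -0.0028, -0.0425 and 0.094 from it. The replicate block gave 1 call for the interaction (Apoa4, adjusted p = 0.0441) and 3 for rhythms in SPF LKO livers. Replicate numbers did not pair the livers, since the median correlation of deviations over 18 pairs was 0.0076, -0.0235, -0.008 and -0.047. Without the filter rhythms in SPF LKO livers gave 3 calls, and calls by ZT numbered 9, 16 and 15 (LKO in GF, GF in WT, GF in LKO), against 9, 20 and 14 with DESeq2. With ZT as a factor rhythm calls were 0 in SPF LKO and 0 in GF WT livers, and changed rhythms 0 for GF against SPF, LKO, where voom gave 2. Leaving out replicates gave 1 to 1, 2 to 6, 4 to 8 and 4 to 7 pooled calls (LKO in SPF, LKO in GF, GF in WT, GF in LKO), 0 to 1 for the interaction, 0 to 0, 0 to 4, 0 to 2 and 1 to 2 rhythms (SPF WT, SPF LKO, GF WT, GF LKO), 0 to 0 changed rhythms in 3 comparisons and 0 to 1 for GF against SPF, LKO, and 2 to 4, 2 to 6, 2 to 9 and 1 to 7 calls by ZT. The causes of these changes were not tested. Apoc2, at 6 to 61 counts, had the fewest counts.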

Other observations

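Some of the 10 transcripts varied together over the 72 libraries, which share groups, times and scaling. After the mean of each group and ZT was taken out, Pearson's r of log2 CPM was 0.85 for Apoa2 and Apoc3, 0.84 for Apoa2 and Apoc1, 0.71 for Apoc1 and Apoc3 and 0.69 for Apoa5 and Apoe. Apoa4 and Apom went the other way, with r = -0.31 after and -0.58 before the means were taken out. Neighbourhood on the chromosome was not shared by Apoa2 with Apoc3, nor by Apoa5 with Apoe.

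Over the 24 means of group and ZT, the 3 genes most like Apoa2 among 10708 were the ribosomal protein genes Rps3, Rpl7 and Rps15 (r = 0.97, 0.96 and 0.96), and those most like Apoc1 were Ndufa2, Ndufa13 and Atp5e of mitochondrial respiration (r = 0.97, 0.96 and 0.96). Secreted serine protease inhibitors stood among the closest for 3 genes, Serpina1a for Apoa1 (r = 0.91), Serpina1c for Apoc3 (r = 0.97) and Serpina1e for Apom (r = 0.95). These Serpina1 genes are near-identical copies, so their own counts are uncertain. For Apoa4 the closest was Pcgf2 (r = 0.84), for Apoa5 Ccdc86 (r = 0.84), for Apob Tnpo3 (r = 0.83) and for Apoe Endog (r = 0.86). Each r is the highest of many and is a description of these means.

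The summed level of cholangiocyte markers had medians of 53.3 CPM in SPF WT, 70.3 in SPF LKO, 44.5 in GF WT and 91.03 in GF LKO libraries, and that of Kupffer cell markers 279.7, 243.0, 262.0 and 220.0. Most of the cholangiocyte sum was Spp1, at medians of 44.04, 58.51, 34.36 and 80.05 CPM in the same order of groups. Sox9 medians were also higher in LKO libraries (3.79, 10.01, 4.03 and 6.67 CPM). For Krt19 the medians were 1.30, 0.93, 1.19 and 1.37 CPM, and for Epcam 1.61, 1.15, 1.11 and 1.25. Both LKO medians were smaller in SPF and larger in GF mice. Krt7 was smaller in LKO libraries of either condition (0.78, 0.57, 0.77 and 0.66 CPM). The part of these markers in the results was not tested.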
